A study of Mus musculus with 16 samples.

Results

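The 10 genes described here encode transcription factors that divide the embryonic telencephalon into the pallium, its dorsal part, and the subpallium, its ventral part. They are *Emx2*, *Pax6*, *Gsx1*, *Gsx2*, *Dlx1*, *Dlx2*, *Nkx2-1*, *Nr2f1*, *Nr2f2* and *Sp8*. They were taken by symbol from a table of 30386 genes, with earlier results of these data known, and each was found there as 1 row. A read was detected for 8 of them, and these 8 passed the filter on low values, of more than 1 CPM (the reads of a gene scaled by all reads of its sample) in at least 4 of 16 samples, with which 12533 genes were tested.

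In the embryo, *Emx2* and *Pax6* are made by pallial progenitors in opposing gradients, whereas the *Gsx* and *Dlx* homeobox genes specify progenitors of the ganglionic eminences and the GABAergic neurons that these give rise to. *Nkx2-1* marks the medial eminence, *Nr2f1* and *Nr2f2* encode the COUP-TF orphan nuclear receptors that set areal and ventral identity, and *Sp8* encodes a zinc finger factor of the olfactory bulb interneuron lineage. Neural stem and progenitor cells (NSPCs) of the adult subventricular zone (SVZ) keep parts of this code, which differs between the walls of the lateral ventricle from which they come.

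The samples were 16 cultures of NSPCs from the SVZ of C57BL/6 J/Babr mice of 3 months of age. *Dbx2*-NSPCs, 8 samples with the label Dbx2_constitutive, had been nucleofected with a pTP6 plasmid that drives *Dbx2*, a homeobox gene, constitutively. *GFP*-NSPCs, 8 samples with the label GFP_CTR, had received the same plasmid with hrGFP, and both were kept under puromycin selection as bulk cultures and grown without attachment in EGF and FGF2. The lines came in pairs from separate derivations, each grown in several independent experiments. The labels number the samples 1 to 8 in each group but do not name the line, so replicates 1 to 4 and replicates 5 to 8 are compared below as ranges of numbers, and p-values measure the spread between these samples only. RNA was read near the 3′ end of transcripts by QuantSeq, at 1803928 to 3293285 reads a sample as recovered from the CPM. A count of 3 reads, taken as the floor in each library, was worth 0.911 to 1.66 CPM. As the reads carry no molecular identifiers, floors allow for the error of counting alone.

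*Dbx2* itself was at 155 ± 35.4 CPM in *Dbx2*-NSPCs and 77.2 ± 51.8 CPM in *GFP*-NSPCs (SD, n = 8 each; limma adjusted p = 0.00978), where the table's single row does not tell the transgene from the endogenous gene. Within the ranges its log2 difference was 0.54 (adjusted p = 0.0891) in replicates 1 to 4, where the groups overlapped, and 1.99 (adjusted p = 5.67e-08) in replicates 5 to 8; in *GFP*-NSPCs it was at 120 ± 35.6 CPM in the first range and 34.0 ± 3.96 CPM in the other (SD, n = 4 each). The summed level of 9 neural progenitor markers, each detected and *Pax6* among them, was lower without overlap in *Dbx2*-NSPCs of both ranges, 4784 to 5629 against 5768 to 6177 CPM in replicates 1 to 4 and 4625 to 4955 against 5485 to 5709 CPM in replicates 5 to 8. Of the markers of cells that could have come along, those of microglia summed to at most 1.96 CPM, those of endothelium to at most 8.08 CPM with *Cldn5*, *Cdh5* and *Tie1* at 0, and those of fibroblasts and mural cells to at most 3.73 CPM. The ependymal sum was at most 34.67 CPM with *Tmem212*, *Pifo* and *Dnah11* at 0, and the choroid plexus sum at most 38.85 CPM with *Clic6* at 0. The neuron and neuroblast sum, with *Stmn2* at 0, was lower without overlap in *Dbx2*-NSPCs of replicates 5 to 8, at 1428 to 1786 against 2269 to 2434 CPM. In replicates 1 to 4 it overlapped, at 1377 to 1656 against 1610 to 1930 CPM. The members of this sum moved apart in replicates 5 to 8. There *Map2* (log2 difference -0.638) and *Sox11* (-0.524) were lower in *Dbx2*-NSPCs. *Dcx* (3.025), *Rbfox3* (2.902) and *Elavl3* (1.343) were higher there, and *Tubb3* (0.057) was not called. The astrocyte sum was lower without overlap in replicates 1 to 4, at 1156 to 1536 against 1978 to 2497 CPM, and overlapped in replicates 5 to 8, at 1061 to 1223 against 902 to 1158 CPM. Its members moved apart over all samples, *Gfap* (log2 difference 3.31) and *Aldoc* (1.42) being higher and *Gja1* (-4.12) and *Slc1a3* (-1.03) lower in *Dbx2*-NSPCs. The oligodendrocyte lineage sum, with *Mog* at 0, was 2221 to 2657 against 2760 to 3127 CPM in replicates 1 to 4 and 2793 to 2947 against 2446 to 3176 CPM in replicates 5 to 8. Where these sums move with a gene below, their part in its difference was not tested. In bulk cultures, fewer cells with a transcript and less of it in each cell cannot be told apart.

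The promoter windows of the 4 genes whose difference passed the test within both ranges are printed because these genes were lower together in *Dbx2*-NSPCs, and because *Dbx2* encodes a homeodomain protein, a class whose members often bind the letters TAATTA. Each runs 5′ to 3′ from 250 bases before to 50 bases after a RefSeq start on GRCm38.p6. For *Pax6* and *Nr2f1*, for which RefSeq holds more than 1 window, the one shown lies nearest the gene's annotated 5′ end. Capitals mark TAATTA, and CCAAT, the motif of a common promoter box, on either strand.
Emx2, chr19:59458440-59458739, plus strand: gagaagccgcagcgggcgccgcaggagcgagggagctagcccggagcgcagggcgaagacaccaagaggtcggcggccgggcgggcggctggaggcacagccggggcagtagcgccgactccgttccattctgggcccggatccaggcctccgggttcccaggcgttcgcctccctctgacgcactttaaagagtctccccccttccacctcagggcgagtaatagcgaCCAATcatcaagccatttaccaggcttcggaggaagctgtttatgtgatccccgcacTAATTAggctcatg
Pax6, chr2:105668646-105668945, plus strand: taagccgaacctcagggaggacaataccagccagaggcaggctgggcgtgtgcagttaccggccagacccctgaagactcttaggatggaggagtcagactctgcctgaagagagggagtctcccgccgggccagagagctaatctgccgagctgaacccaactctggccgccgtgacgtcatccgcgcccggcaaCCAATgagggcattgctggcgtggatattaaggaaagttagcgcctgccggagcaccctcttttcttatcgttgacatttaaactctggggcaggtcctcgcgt
Nr2f1, chr13:78198824-78199123, minus strand: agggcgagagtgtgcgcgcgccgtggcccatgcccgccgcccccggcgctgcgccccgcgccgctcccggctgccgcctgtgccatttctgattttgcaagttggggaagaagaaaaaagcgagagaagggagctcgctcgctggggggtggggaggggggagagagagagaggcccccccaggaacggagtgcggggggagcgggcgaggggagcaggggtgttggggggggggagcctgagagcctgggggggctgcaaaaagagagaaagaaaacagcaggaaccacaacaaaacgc
Nr2f2, chr7:70366697-70366996, minus strand: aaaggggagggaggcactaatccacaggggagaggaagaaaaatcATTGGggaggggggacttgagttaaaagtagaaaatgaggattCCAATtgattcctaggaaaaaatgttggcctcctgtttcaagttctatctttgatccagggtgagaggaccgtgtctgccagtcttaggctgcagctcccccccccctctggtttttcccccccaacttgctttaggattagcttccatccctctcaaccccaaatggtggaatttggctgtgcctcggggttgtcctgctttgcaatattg
TAATTA was found in the *Emx2* window, at position 37 counted from 1 at the start, and in no other of these 4. Over the 14 windows of the 10 genes it was present in 2, the other being the most downstream of the *Sp8* windows, against 5.29% of the 32851 windows of all genes. CCAAT was present in 6 of the 14 windows, among them those of *Emx2*, *Pax6* and *Nr2f2*, against 37.4% of all windows. GC content ran from 43.0% to 69.3% over the 14 windows, with a median of 57.9% against 52.7% over all windows. A match of letters is a description of the window and not a site of binding.

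Over all 16 samples, 3 of the 10 factors passed the test, *Emx2*, *Pax6* and *Nr2f1*, each lower in *Dbx2*-NSPCs and each with no overlap between the groups. The difference was tested with limma on log2(CPM + 0.5), with Benjamini-Hochberg adjustment over all 12533 genes and a threshold of 0.05. By this test 15.8% of the tested genes changed, 7.78% being lower, and 1.81% were lower with no overlap between the groups. Values for the factors are CPM unless a log2 difference is named, always *Dbx2*-NSPCs minus *GFP*-NSPCs.

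*Emx2* (ENSMUSG00000043969; GRCm38 chromosome 19, 59458372 to 59465357, plus strand) encodes a homeodomain factor of the dorsal and caudal pallium. In *GFP*-NSPC replicates 1 to 8 its level was 77.75, 80.06, 64.51, 47.99, 58.18, 48.16, 50.89 and 62.51 CPM. The *Dbx2*-NSPC samples, in the same order, were at 39.17, 31.56, 27.03, 32.29, 35.9, 29.82, 31.6 and 16.54 CPM. Every *Dbx2*-NSPC sample lay under every *GFP*-NSPC sample, the lowest being replicate 8. The means were 61.3 ± 12.5 and 30.5 ± 6.73 CPM (SD, n = 8 each), a log2 difference of -1.01 (standard error 0.157, limma adjusted p = 0.000184), or 2.01-fold. The level rested on 49 to 227 reads a library.

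*Pax6* (ENSMUSG00000027168; chromosome 2, 105668900 to 105697364, plus strand) encodes the paired-box factor of pallial radial glia, which in the adult SVZ also acts in dopaminergic olfactory bulb interneurons. Its level in *GFP*-NSPC replicates 1 to 8 was 35.45, 36.68, 44.64, 49.99, 44.33, 47.85, 41.32 and 43.18 CPM. In *Dbx2*-NSPCs it was 18.62, 30.05, 28.33, 21.53, 30.62, 22.05, 24.83 and 29.04 CPM. The highest *Dbx2*-NSPC sample, replicate 5, was under the lowest *GFP*-NSPC sample, replicate 1. The log2 difference was -0.74 (standard error 0.119, limma adjusted p = 0.00025), or 1.67-fold, between means of 42.9 ± 5.02 and 25.6 ± 4.52 CPM (SD, n = 8 each).

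*Nr2f1* (ENSMUSG00000069171; chromosome 13, 78188973 to 78199757, minus strand) encodes COUP-TF1, a nuclear receptor of caudal and ventral cortical progenitors. Its level in *GFP*-NSPC replicates 1 to 8 was 231.25, 256.06, 281.19, 239.93, 160.14, 149.99, 165.29 and 169.02 CPM. The *Dbx2*-NSPC samples were at 104.02, 104.1, 117.23, 111.95, 83.07, 95.98, 97.97 and 100.95 CPM. The *GFP*-NSPC samples fell into a higher range, replicates 1 to 4, and a lower one, replicates 5 to 8, and the *Dbx2*-NSPC samples lay below both. The log2 difference was -0.98 (standard error 0.127, limma adjusted p = 2.55e-05), or 1.98-fold, between 207 ± 51.0 and 102 ± 10.4 CPM (SD, n = 8 each).

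*Nr2f2* (ENSMUSG00000030551; chromosome 7, 70351944 to 70366735, minus strand) encodes COUP-TF2, the paralog of *Nr2f1* that marks the caudal eminence and its interneurons. Its level was 9.27, 31.04, 43.66 and 43.65 CPM in *GFP*-NSPC replicates 1 to 4, and 135.21, 151.83, 172.8 and 151.34 CPM in replicates 5 to 8. The *Dbx2*-NSPC samples were at 2.89, 3.64, 3.91 and 3.59 CPM in replicates 1 to 4, and 83.42, 84.18, 77.2 and 91.5 CPM in replicates 5 to 8. The groups overlapped over all samples but in neither range, and the *Dbx2*-NSPC sample was the lower of each of the 8 same-numbered pairs, with log2 differences of -3.43 to -0.69. Over all samples the log2 difference was -1.83 (standard error 0.842, limma adjusted p = 0.155), and the adjusted p was 0.00121 once the replicate number was entered as a block (0.000108 to 0.403 over the other settings tried).

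**Figure D1:**
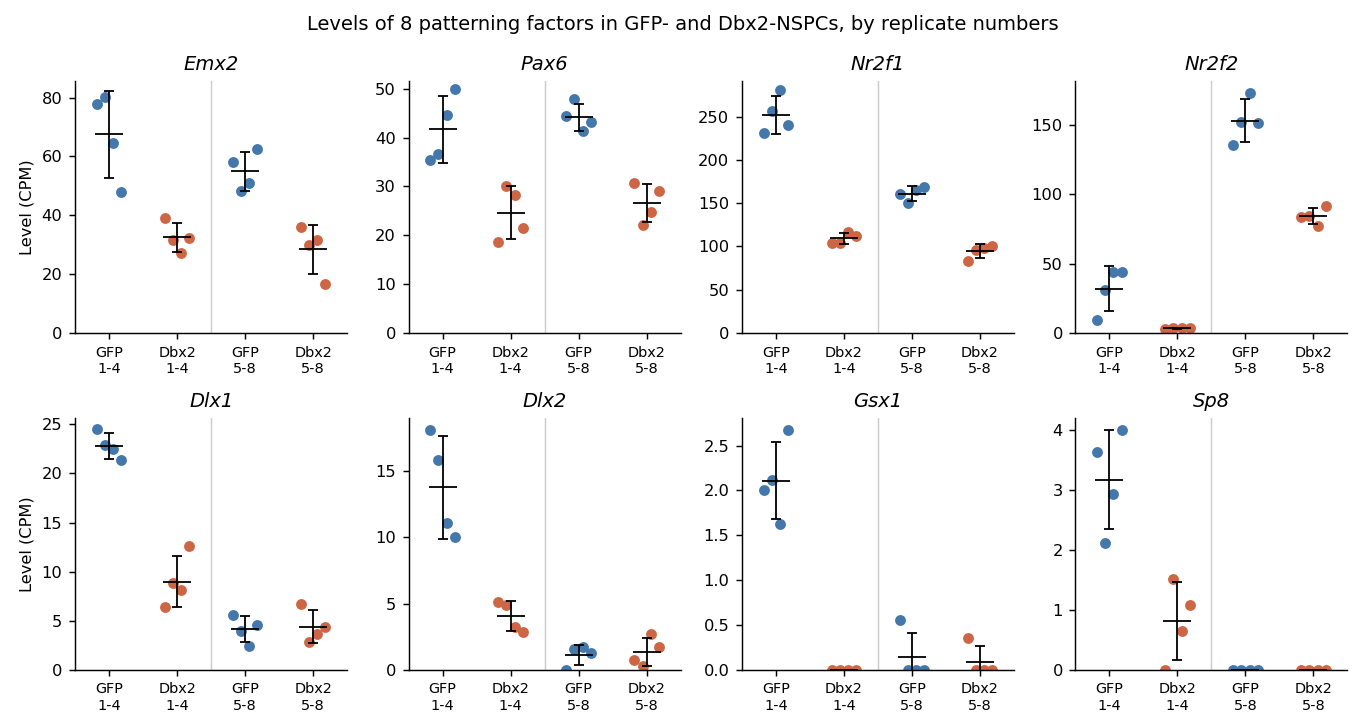
Level in CPM (linear axes from 0) of the 8 factors with reads, in *GFP*-NSPCs (blue) and *Dbx2*-NSPCs (orange) of replicates 1 to 4 and 5 to 8; points are samples in order of replicate number, and bars are the mean and SD of 4 samples. *Emx2*, *Pax6*, *Nr2f1* and *Nr2f2* were lower in *Dbx2*-NSPCs in both ranges, whereas *Dlx1*, *Dlx2*, *Gsx1* and *Sp8* were at 4.37 CPM or less on average in replicates 5 to 8 of either group.

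Among the subpallial factors, the genes of the *Dlx* pair lie 9426 bases apart on chromosome 2, *Dlx1* (ENSMUSG00000041911; 71528113 to 71533981) on the plus and *Dlx2* (ENSMUSG00000023391; 71543408 to 71546754) on the minus strand. Both encode homeodomain factors required for GABAergic interneurons, and both were higher in replicates 1 to 4 of *GFP*-NSPCs than in every other sample. *Dlx1* was at 24.57, 22.93, 22.48 and 21.33 CPM in *GFP*-NSPC replicates 1 to 4 and at 2.39 to 5.54 CPM in replicates 5 to 8. In *Dbx2*-NSPCs it was at 6.42, 8.8, 8.14 and 12.56 CPM in replicates 1 to 4 and at 2.8 to 6.69 CPM in replicates 5 to 8. Over all samples the log2 difference was -0.63 (standard error 0.459, limma adjusted p = 0.386). *Dlx2* was at 18.13, 15.87, 11.08 and 10 CPM in *GFP*-NSPC replicates 1 to 4, against 5.14, 4.86, 3.26 and 2.87 CPM in *Dbx2*-NSPCs of the same numbers. In replicates 5 to 8 *GFP*-NSPCs were at 0 to 1.71 CPM, *Dbx2*-NSPCs at 0.31 to 2.71 CPM, levels of at most 6 reads a library. Its log2 difference over all samples was -0.72 (standard error 0.668, limma adjusted p = 0.513), a value that was -0.43 without *GFP*-NSPC replicate 1, -0.45 without 2, -0.48 without *Dbx2*-NSPC replicate 6 and -1.17 without *GFP*-NSPC replicate 5, and -1.44 in edgeR and -1.45 in DESeq2.

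*Gsx1* (ENSMUSG00000053129; chromosome 5, 147188696 to 147190947), a homeobox gene of the ganglionic eminences that acts upstream of the *Dlx* genes, was near the limit of detection. It was at 2.01, 2.12, 1.63 and 2.67 CPM in *GFP*-NSPC replicates 1 to 4, which is 5 to 8 reads a library and 24 reads in all. In the other 12 samples it was at 0 but for a single read in replicate 5 of each group. *Gsx1* passed the filter only through these 4 *GFP*-NSPC samples, so that a difference within replicates 1 to 4 follows in part from the filter. Over all samples both groups were under the floor on average, at 1.12 ± 1.10 and 0.0438 ± 0.124 CPM (SD, n = 8 each), and the limma adjusted p was 0.0652. Without *GFP*-NSPC replicate 6, 7 or 8 it was 0.0365, 0.0364 or 0.0352.

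*Sp8* (ENSMUSG00000048562; chromosome 12, 118846329 to 118852576), a gene of dorsal eminence progenitors and olfactory bulb interneurons, was detected in replicates 1 to 4 only. It was at 3.63, 2.12, 2.93 and 4 CPM in *GFP*-NSPCs, 6 to 12 reads a library, and at 0, 1.52, 0.65 and 1.08 CPM in *Dbx2*-NSPCs, 0 to 5 reads a library. In replicates 5 to 8 it was at 0 in all 8 libraries, and over all samples its log2 difference was -0.81 (standard error 0.580, limma adjusted p = 0.376). *Gsx2* (ENSMUSG00000035946; chromosome 5, 75075601 to 75077893), the relative of *Gsx1* in the lateral eminence, and *Nkx2-1* (ENSMUSG00000001496; chromosome 12, 56531958 to 56536908), the gene that defines the medial eminence, had 0 reads in each of the 16 libraries, which allows a level of up to the floor of 0.911 to 1.66 CPM in a library.

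Within replicates 1 to 4, fitted on these 8 samples alone, each of the 8 factors with reads was lower in *Dbx2*-NSPCs by the same test, with no overlap between the groups. *Gsx1* and *Sp8* would not have passed the filter without the *GFP*-NSPC samples of this range. Their calls and their lack of overlap here thus follow in part from the filter. Over the tested genes 15.6% changed in this range, 7.37% being lower, and 10% were lower with no overlap. The largest log2 difference among the pallial factors and COUP-TFs was that of *Nr2f2*, -2.80 (standard error 0.416, limma adjusted p = 0.000913), from 31.9 ± 16.2 to 3.51 ± 0.435 CPM (SD, n = 4 each). *Nr2f1* fell from 252 ± 21.9 to 109 ± 6.45 CPM, a log2 difference of -1.20 (adjusted p = 1.18e-05). *Emx2* was at 67.6 ± 14.7 and 32.5 ± 5.01 CPM (log2 difference -1.03, adjusted p = 0.00227).
*Pax6* was at 41.7 ± 6.87 and 24.6 ± 5.44 CPM (log2 difference -0.76, adjusted p = 0.0158), and without *GFP*-NSPC replicate 3 or 4 its adjusted p was 0.0554 or 0.0605.

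The subpallial factors in this range had log2 differences of -1.34 for *Dlx1* (standard error 0.219, adjusted p = 0.00168) and -1.65 for *Dlx2* (standard error 0.288, adjusted p = 0.0025), which are 2.52-fold and 3.14-fold. *Gsx1* was at 0 in the 4 *Dbx2*-NSPC libraries, so it was at least 2.15-fold lower against the floor of 3 reads per library (limma adjusted p = 0.000907). *Sp8* had a log2 difference of -1.63 (standard error 0.452, adjusted p = 0.029), on 36 reads in *GFP*-NSPCs and 10 in *Dbx2*-NSPCs, where its mean of 0.813 CPM was under the floor. This size depends on the pseudocount, being -2.37 with 0.1 and -0.89 with 2. Its call was lost without *GFP*-NSPC replicate 1 (adjusted p = 0.0551), 3 (0.0688) or 4 (0.0894) and without *Dbx2*-NSPC replicate 1 (0.0528) or 3 (0.0685). In edgeR's test on whole reads its adjusted p was 0.0564. *Dbx2* itself differed by 0.54 on the log2 scale in these samples, as given above.

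Within replicates 5 to 8, 4 of the 10 factors passed the test, *Emx2*, *Pax6*, *Nr2f1* and *Nr2f2*, each lower in *Dbx2*-NSPCs with no overlap between the groups. Here 23.2% of the tested genes changed, 11.7% being lower, and 12.6% were lower with no overlap. *Nr2f2* fell from 153 ± 15.4 to 84.1 ± 5.85 CPM (SD, n = 4 each), a log2 difference of -0.86 (standard error 0.0943, limma adjusted p = 1.58e-05). For *Nr2f1* the levels were 161 ± 8.26 and 94.5 ± 7.88 CPM, a log2 difference of -0.77 (standard error 0.0872, adjusted p = 1.99e-05). The log2 differences of *Emx2* and *Pax6* were -0.98 (standard error 0.201, adjusted p = 0.00263) and -0.73 (standard error 0.136, adjusted p = 0.00134).

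*Dlx1* and *Dlx2* showed no call in replicates 5 to 8, at levels of 4.11 ± 1.31 and 4.37 ± 1.68 CPM for *Dlx1* and 1.12 ± 0.771 and 1.35 ± 1.08 CPM for *Dlx2* in *GFP*-NSPCs and *Dbx2*-NSPCs (SD, n = 4 each). The log2 difference of *Dlx1* was 0.07, with a 95% interval of -0.65 to 0.79 (limma adjusted p = 0.911), so that a fall of the size seen in replicates 1 to 4 lies outside it. For *Dlx2* it was 0.20, with an interval of -0.98 to 1.39 (adjusted p = 0.836). The sign of both turned when single samples were left out, as given in the closing section. *Gsx1* and *Sp8* were at or under the floor in both groups of this range, so that no difference was detectable at this depth.

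**Figure D2:**
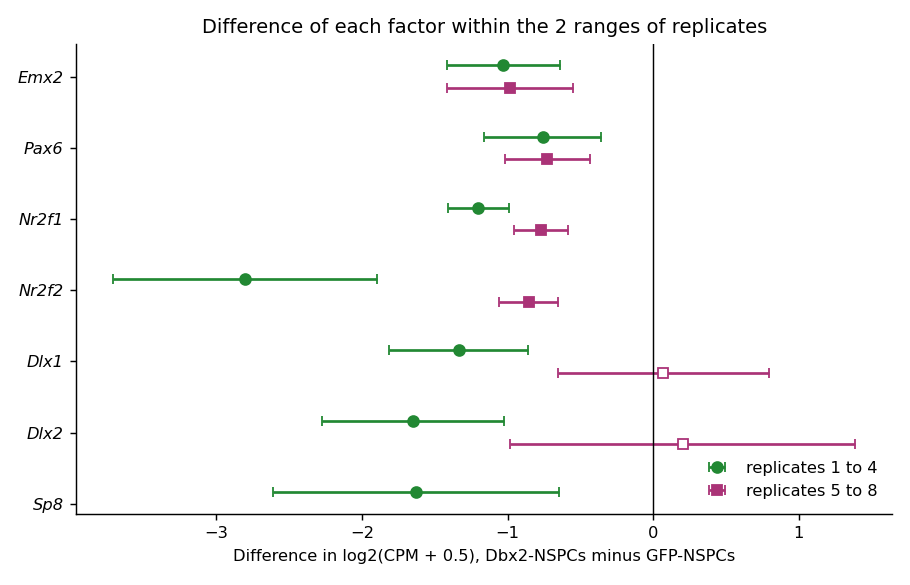
Difference in log2(CPM + 0.5), *Dbx2*-NSPCs minus *GFP*-NSPCs, with its 95% interval, for 7 factors in replicates 1 to 4 (green circles) and 5 to 8 (purple squares), n = 4 per group; filled symbols have a limma adjusted p under 0.05. *Emx2* and *Pax6* lay at about the same place in both ranges, and *Nr2f2* at -2.80 and -0.86. In replicates 5 to 8 *Dlx1* lay at 0.07 and *Dlx2* at 0.20, with wide intervals that include 0 (-0.98 to 1.39 for *Dlx2*). *Sp8* is not drawn where it was at 0, nor *Gsx1*, whose fitted size depends on the pseudocount.

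Whether the difference itself differed between the ranges was tested as the interaction of transgene and range over the 16 samples, by which 9.44% of the tested genes were called. Of the 10 factors 4 were called, *Nr2f2*, *Dlx1*, *Gsx1* and *Nr2f1*, each with the larger decrease in replicates 1 to 4. The log2 difference of *Nr2f2* in replicates 5 to 8 minus that in replicates 1 to 4 was 1.95 (standard error 0.408, limma adjusted p = 0.00197). For *Dlx1* it was 1.40 (standard error 0.403, adjusted p = 0.0251), and this call was lost without *GFP*-NSPC replicate 7 (adjusted p = 0.064) or *Dbx2*-NSPC replicate 1 (0.0518) or 5 (0.0633). *Gsx1* was called at an adjusted p of 0.0186, with the limit of the filter given above, and its call was lost with edgeR (0.193).

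For *Nr2f1* the interaction was 0.43 (standard error 0.134, adjusted p = 0.0426), a call that was lost when any 1 of 11 of the 16 samples was left out; it was kept without *GFP*-NSPC replicate 1 or 8 or *Dbx2*-NSPC replicate 3, 4 or 5, and the adjusted p ran from 0.021 to 0.105. *Dlx2* had an interaction of 1.85 (standard error 0.645, adjusted p = 0.0735; 0.0357 with the replicate number as a block and 0.00953 with a pseudocount of 2), and *Sp8* one of 1.63 (adjusted p = 0.124). *Emx2* and *Pax6* had interactions of 0.04 (95% interval -0.53 to 0.61, adjusted p = 0.954) and 0.03 (95% interval -0.45 to 0.51, adjusted p = 0.963). A p that misses the threshold does not show that the differences of these genes were alike in the ranges.

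The levels in *GFP*-NSPCs also differed between the ranges, and the factors did so in both directions. Between replicates 5 to 8 and replicates 1 to 4 of *GFP*-NSPCs, 28.6% of the tested genes changed, and 6 of the 10 factors did. *Nr2f2* was higher in replicates 5 to 8 by 2.46 on the log2 scale (limma adjusted p = 0.000261). *Dlx1*, *Dlx2*, *Nr2f1*, *Gsx1* and *Sp8* were lower there, the log2 difference being -2.39 for *Dlx1* (adjusted p = 1.57e-05), -3.31 for *Dlx2* (adjusted p = 0.000123) and -0.64 for *Nr2f1* (adjusted p = 0.000109). *Sp8*, at 0 in replicates 5 to 8, was at least 2.62-fold lower there. *Gsx1* and *Sp8* had passed the filter only through replicates 1 to 4, so that their calls between the ranges follow in part from the filter. *Emx2* differed by -0.28 (adjusted p = 0.213) and *Pax6* by 0.09 (adjusted p = 0.638). What sets the ranges apart, a line, a time or a passage, cannot be told apart with these labels.

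In *Dbx2*-NSPCs, 15.4% of the tested genes changed between the ranges, and 3 of the 10 factors did. *Nr2f2* was higher in replicates 5 to 8, at 84.1 against 3.51 CPM (log2 difference 4.40 on the log2(CPM + 0.5) scale, limma adjusted p = 1.17e-09). *Dlx1* and *Dlx2* were lower there by -0.98 (adjusted p = 0.0475) and -1.45 (adjusted p = 0.0396) on the log2 scale. The order of the 4 groups thus differed between the COUP-TF genes. For *Nr2f1* the levels fell from *GFP*-NSPCs of replicates 1 to 4, over those of replicates 5 to 8, to *Dbx2*-NSPCs of either range. The 2 ranges of *Dbx2*-NSPCs did not pass the test against each other (limma adjusted p = 0.205). Their values did not overlap, however, at 104.02 to 117.23 CPM in replicates 1 to 4 and 83.07 to 100.95 CPM in replicates 5 to 8. For *Nr2f2* both groups of replicates 5 to 8 stood above both groups of replicates 1 to 4, and no neighbours in this order overlapped.

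Split by sums of squares of log2(CPM + 0.5), the spread of *Emx2*, *Pax6* and *Nr2f1* lay for 72.5%, 76.6% and 78.8% in the transgene, and for 4.62%, 1.67% and 14.8% in the range. The order was the other way round for *Nr2f2*, *Dlx1*, *Dlx2* and *Sp8*, where the range took 69.6%, 68.1%, 65.8% and 67.5% and the transgene 19.8%, 9.62%, 6.07% and 10.8%. What remained within the 4 groups of 4 samples was least in *Nr2f1*, at 2.64%, and most in *Emx2*, at 22.9%. These shares describe the 16 samples and carry no test.

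**Figure D3:**
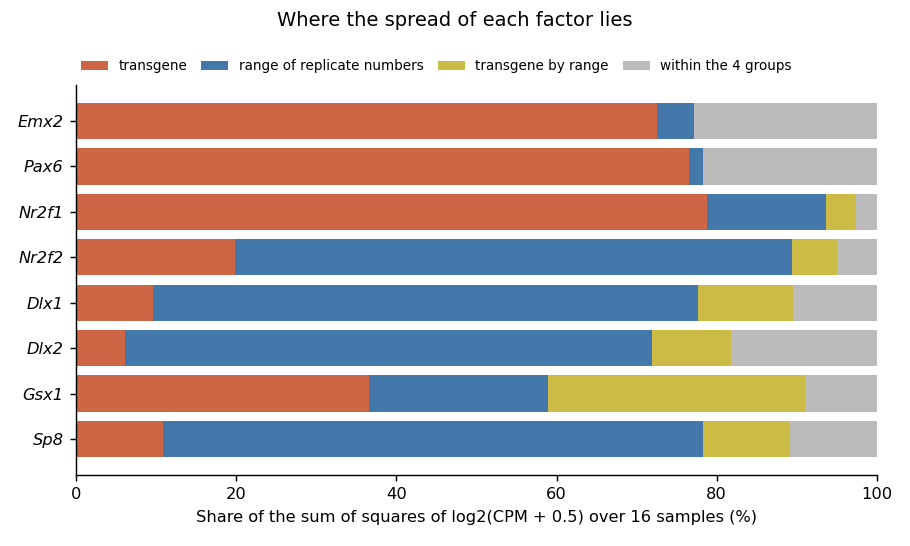
Share of the sum of squares of log2(CPM + 0.5) over 16 samples, in percent, that lies in the transgene, in the range of replicate numbers, in their interaction and within the 4 groups, for the 8 factors with reads. The transgene took 72.5% to 78.8% for *Emx2*, *Pax6* and *Nr2f1*, and the range 65.8% to 69.6% for *Nr2f2*, *Dlx1*, *Dlx2* and *Sp8*.

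For each factor with a mean of at least 20 CPM, the genes most like it over the 16 samples were taken by Pearson's r of log2(CPM + 0.5) among the 8651 genes whose mean reached 10 CPM. *Emx2* was most like *Epha5*, which encodes an ephrin receptor (r = 0.925), and *Cacng5* (r = 0.908). *Pax6* was most like *Cacng4* (r = 0.938), which like *Cacng5* encodes a transmembrane regulator of AMPA receptors, and *Nrep* (r = 0.93). *Nr2f1* was most like *Cldnd1* (r = 0.976) and *Ntrk3*, the gene of the neurotrophin-3 receptor (r = 0.959). For *Nr2f2* these were *Trim44* (r = 0.944) and the imprinted gene *Peg10* (r = 0.944). The 16 points of each r share the transgene and the range of numbers, and the genes are the highest of many.

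Other genes of telencephalic patterning were described by lists. Of 14 other pallial factors 6 were tested, and over all samples 0 were called by limma, edgeR or DESeq2 without a covariate. In limma 1 was at an unadjusted p under 0.05, and the median log2 difference was 0.06 against -0.02 over all tested genes. The count was 1 with the replicate block or quantile normalization, and 2 with the range as a covariate in limma or edgeR. It was also 1 without *GFP*-NSPC replicate 3 or 4 or *Dbx2*-NSPC replicate 1 or 2. The 4 that passed within a range did so in different directions. *Neurog2*, a proneural gene of glutamatergic progenitors, rose from 0.698 CPM, under the floor, to 3.40 CPM in replicates 1 to 4 (limma adjusted p = 0.0126). As *Neurog2* was at 0 in replicates 5 to 8, it passed the filter only with these *Dbx2*-NSPC samples, from which the call follows in part. *Eomes*, a gene of intermediate progenitors, was at 4.12 CPM in *GFP*-NSPCs and under the floor, at 0.258 CPM, in *Dbx2*-NSPCs of replicates 5 to 8 (adjusted p = 0.00131). *Lhx2*, a selector gene of the cortex, rose there by 0.86 on the log2 scale (adjusted p = 0.000463). *Dmrta2*, a factor of the medial pallium, fell by 0.78 in replicates 1 to 4 (adjusted p = 0.00529) and rose by 0.75 in replicates 5 to 8 (adjusted p = 0.00609), a difference between the ranges that passed its own test (adjusted p = 6.32e-05).

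Of 16 other subpallial factors 7 were tested, with a median log2 difference of -0.80 over all samples. Against 7.78% of all tested genes, 2 of the 7 were lower. These were *Ebf1*, a gene of striatal neurons, at 16.2 and 4.99 CPM (log2 difference -1.45, adjusted p = 0.0067), and *Meis2*, a homeobox gene of the lateral eminence, at 136 and 81.6 CPM (log2 difference -0.80, adjusted p = 0.00205). *Meis2* lay outside the rule for naming and was chosen after its values were seen. Within replicates 1 to 4, *Nkx6-2* was at 3.35 CPM in *GFP*-NSPCs and under the floor, at 0.415 CPM, in *Dbx2*-NSPCs (limma adjusted p = 0.00673); it passed the filter only through *GFP*-NSPC samples, from which the call follows in part. In the same range *Gad1*, which encodes an enzyme of GABA synthesis, was at 23.2 and 8.22 CPM (log2 difference -1.55, adjusted p = 0.00592). *Gad1* was at 2.43 and 2.11 CPM in replicates 5 to 8, where *Dlx1* and *Dlx2* were also low. *Sp9*, a relative of *Sp8*, had a log2 difference of -1.21 in replicates 5 to 8 (adjusted p = 0.00106) and of 0.34 in replicates 1 to 4 (adjusted p = 0.383), and the difference between the ranges passed its own test (adjusted p = 0.00196).

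Of 15 regional factors of the forebrain, all tested, 9 were lower and 1 higher over all samples, with a median log2 difference of -0.56. Of all tested genes 7.78% were lower, and 15.8% were called in either direction. *Etv1* was at 114 and 40.6 CPM (log2 difference -1.49, adjusted p = 6.60e-05) and *Zic1* at 132 and 51.9 CPM (log2 difference -1.21, adjusted p = 0.00129). Its relatives *Zic2* and *Zic5*, zinc finger genes of the dorsal midline like *Zic1*, had log2 differences of -1.13 (adjusted p = 0.00108) and -1.09 (adjusted p = 0.000233), and the 3 genes were lower in both ranges. *Zic4* was called in replicates 1 to 4 (log2 difference -0.99, adjusted p = 0.0273) but not over all samples (-0.47, adjusted p = 0.295) or in replicates 5 to 8 (0.044, adjusted p = 0.949). The gene that rose was *Nfix*, a nuclear factor I gene that was named after its value was seen, from 399 to 603 CPM (log2 difference 0.61, adjusted p = 4.81e-05).

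Among 5 other receptor genes of the NR2 family, to which *Nr2f1* and *Nr2f2* belong, 4 were tested. Of these, 1 was lower over all samples, against 7.78% of all tested genes. This was *Nr2e1*, a gene of neural stem cell self-renewal also called Tlx, at 11.9 and 6.88 CPM (log2 difference -0.90, limma adjusted p = 0.0382). Without a covariate edgeR and DESeq2 called 0 of these 5, whereas edgeR with the range as a covariate called 1. The limma call was lost without *GFP*-NSPC replicate 2, 3, 4, 5 or 8 or *Dbx2*-NSPC replicate 2, 3, 5 or 6. *Nr2f6*, the closest of them to the COUP-TF genes, was at 40.1 and 38.6 CPM (log2 difference -0.07, adjusted p = 0.776).

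**Figure D4:**
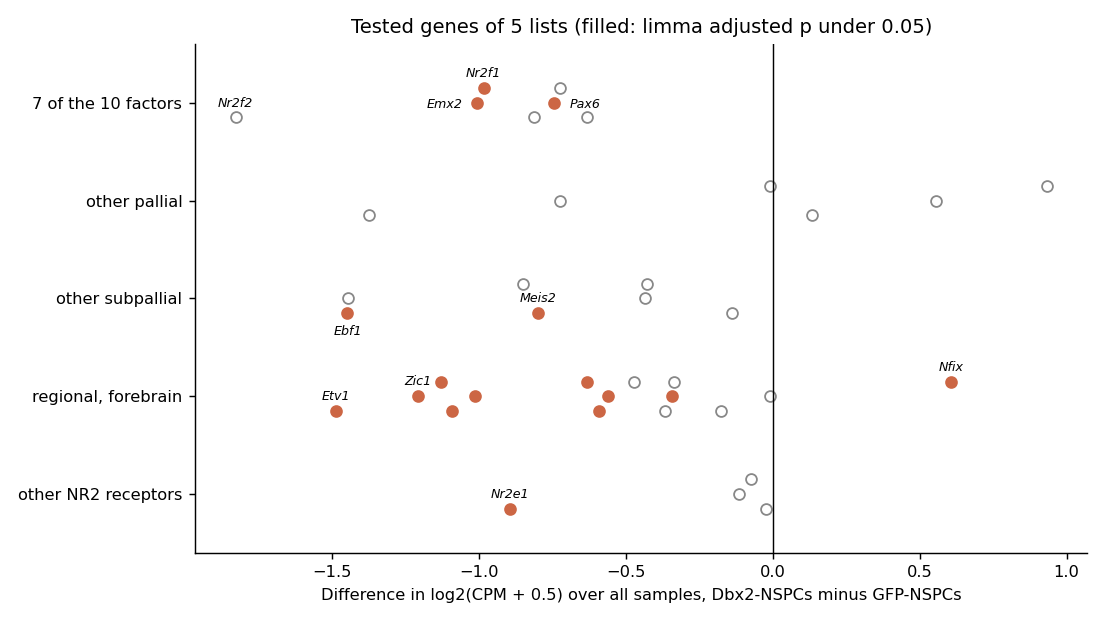
Difference in log2(CPM + 0.5) over all 16 samples, *Dbx2*-NSPCs minus *GFP*-NSPCs, of the tested genes of 5 lists, the top one being the factors themselves; each point is a gene, filled where the limma adjusted p was under 0.05, and named where the text names it and space allows. In the list of regional factors 9 genes were filled to the left of zero and *Nfix* to its right; *Gsx1* is not drawn.

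Genes on the opposite strand overlap 6 of the 10 factors, and the sources used here do not give the strand used in counting. The overlapping exons share 264 bases with *Emx2*, 335 with *Dlx1*, 123 with *Nr2f1* and 643 with *Nr2f2*, and 0 with *Pax6* and *Nkx2-1*, and for none of these genes do they reach the last 500 bases, near which QuantSeq reads lie. *Emx2os* was at 2.57 to 11.29 CPM (log2 difference -0.58, limma adjusted p = 0.128), *A830082K12Rik*, opposite *Nr2f1*, at 21.43 to 46.59 CPM (log2 difference -0.31, adjusted p = 0.139) and *Dlx1as* at 0 to 1.61 CPM. Of 5 antisense neighbours 3 were tested, and limma, edgeR and DESeq2 called 0 of them, with 2 at an unadjusted p under 0.05 in limma.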

How the data were processed

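RNA from 16 NSPC cultures was sequenced as QuantSeq 3′ libraries made from 100 ng of total RNA. The authors checked the reads with FastQC 0.11.8, trimmed them with bbduk, aligned them with STAR 2.5.0a to GRCm38 and annotated genes from Ensembl; their processing notes also name edgeR 3.36, and the counting tool and strand are not given in the sources used here. They deposited CPM, the reads of a gene scaled by all reads of its sample, rounded to 2 decimals, and 0 columns were left out. Whole reads were recovered from the CPM of a single read in each sample, with 99.9995% of the values above 0 whole within 0.05 of a read. The recovered reads gave the reads a sample, the floors and the reads a library printed here. Among the tests they served edgeR and DESeq2 alone.

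Differences were tested in R 4.3.3 with limma 3.58.1 (lmFit, eBayes with trend) on log2(CPM + 0.5) of 12533 genes that exceeded 1 CPM in 4 or more samples, 2-sided, with Benjamini-Hochberg adjustment over all of them and 0.05 as the threshold. Fits within replicates 1 to 4 or 5 to 8 used the same genes. The study fitted the cell line pair as a covariate; the labels do not give it, and the main fit had no covariate. The members and lists were chosen with earlier results of these data known, and 3 listed genes are not reported here. The rule for naming took the 10 factors, *Dbx2*, up to 4 genes a list by size of difference among those that passed over all samples or within a range, and the 2 genes most like each factor with a mean of at least 20 CPM. Outside this rule *Meis2*, *Nfix*, *Zic4*, *Nr2f6*, antisense neighbours and markers of cell types were also named.

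Same-numbered samples deviated together from the transgene means (correlation over tested genes 0.152 to 0.303 in the 8 pairs, each over 0.1). Once the means of the ranges were also removed, 1 of the 8 was over 0.1 (-0.007 to 0.119). What the same-numbered samples shared thus lay mostly between the ranges, and within ranges the numbers were not taken to pair. The main fit over all samples took in neither the number nor the range. Alternatives were pseudocounts of 0.1 and 2, no filter, a filter at a mean of 10 CPM, a model without eBayes trend, quantile and median-of-ratios scaling, the range as a covariate, the replicate block, edgeR 4.0.16 with and without the range as a covariate, DESeq2 1.42.0, and each sample left out. Positions came from GENCODE M21 (GRCm38), which held 30348 of the 30386 genes, and promoter windows from RefSeq on GRCm38.p6, with a window for 10 of the 10 factors. The limma fits over all samples, with the replicate block, within a range and of the interaction were checked on simulated data, as were edgeR and DESeq2 over all samples. The fits with the range as a covariate were not. The simulated *GFP*-NSPCs held no difference between the ranges, so this check cannot show how a fit that leaves the range out behaves where the ranges differ. Plots were drawn with matplotlib 3.10.9.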

Additional observations from a re-analysis of the deposited data

Results flagged for a closer look

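The log2 difference between *Dbx2*-NSPCs and *GFP*-NSPCs differed between replicates 5 to 8 and replicates 1 to 4 in 4 of the 10 factors and in *Dbx2*, by limma's test of the interaction. By this test 9.44% of all tested genes were called. The difference of the log2 differences was 1.95 for *Nr2f2* (adjusted p = 0.00197), 1.40 for *Dlx1* (adjusted p = 0.0251), 0.43 for *Nr2f1* (adjusted p = 0.0426) and 1.45 for *Dbx2* (adjusted p = 0.000104). The call of *Nr2f1* was lost when any 1 of 11 of the 16 samples was left out, and that of *Dlx1* when any 1 of 3 was. For *Gsx1* the fitted value was 2.29 (adjusted p = 0.0186), a size that depends on the pseudocount, since the gene was at 0 or 1 read in 12 samples. *Gsx1* passed the filter only through *GFP*-NSPC replicates 1 to 4, and its call was lost in edgeR (adjusted p = 0.193).

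In 4 of 51 groups of samples a single sample stood apart from the others by Dixon's test. Its threshold is set to flag about 1 in 20 groups by chance. This rate does not carry over here, since the groups of 8 held those of 4. The test also always flags 1 sample above 0 beside libraries at 0. In 3 of the 4 flagged groups it was such a single read of *Gsx1*, at 0.55 CPM in *GFP*-NSPC replicate 5 and at 0.35 CPM in *Dbx2*-NSPC replicate 5, the latter among both 4 and 8 samples. The other was *Dbx2*-NSPC replicate 1, with a *Dbx2* level of 232.13 CPM against 114 to 168.44 CPM in the rest of its group.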

How the results depend on the processing

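The calls of *Emx2*, *Pax6* and *Nr2f1* over all samples, and the 4 calls in replicates 5 to 8, were kept under every alternative run and without any 1 sample. Over all samples the number of factors called rose from 3 to 5 with the range as a covariate (*Gsx1* and *Nr2f2* added). It rose to 7 in edgeR with that covariate (*Dlx1* and *Dlx2* also added), and was 3 to 4 without single samples. With the covariate, calls among all 12533 tested genes rose as well, from 1982 to 3034 in limma and from 1928 to 2938 in edgeR. *Gsx1* passed the filter only through *GFP*-NSPC replicates 1 to 4, so that its calls follow in part from the filter. In replicates 1 to 4 it was 5 with the filter at a mean of 10 CPM, which removes the other 3 genes, and 6 to 8 without single samples. For the difference between the ranges it was 5 with a pseudocount of 2 or the replicate block (*Dlx2* added), 2 in edgeR (*Dlx1* and *Nr2f2*) and 2 to 4 without single samples, with 2 without *GFP*-NSPC replicate 7 or *Dbx2*-NSPC replicate 1. Signs turned, without single samples, in log2 differences that were not called: *Dlx1* (-0.14 to 0.24) and *Dlx2* (-0.29 to 0.54) in replicates 5 to 8, and the interactions of *Emx2* (-0.084 to 0.281) and *Pax6* (-0.092 to 0.133). In the fit with the replicate block, *Nr2f2* over all samples had an adjusted p of 0.00121 and the *Dlx2* interaction one of 0.0357, and no other call of a factor changed, within the ranges included. *Gsx1* over all samples was called in edgeR (adjusted p = 0.0138) and DESeq2 (0.0215), and its interaction was lost with a pseudocount of 0.1 (0.0609), as was *Sp8* in replicates 1 to 4 (0.0684). Of all tested genes, 3034 were called with the range as a covariate against 1982, and 1286 in replicates 1 to 4 without *GFP*-NSPC replicate 3 against 1950. The other pallial factors called numbered 0 to 2 over the alternatives. There was 1 with the replicate block or quantile normalization, and 2 with the range as a covariate in limma or edgeR. The other subpallial factors called numbered 2 to 4 (4 in edgeR with the range as a covariate) and 2 to 3 without single samples. The other NR2 receptors called numbered 0 to 1. Median-of-ratios scaling moved the median log2 difference of all genes from -0.02 to 0.001. At these depths *Gsx1*, *Sp8* and *Dlx2* rest on few reads a library, and levels under the floor were not told apart from 0. The causes of these changes were not tested.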
